A study of Homo sapiens with 4 samples.

Results

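Genes that sense and answer low oxygen were followed in Hs683, an established human glioma cell line, with and without added miR-20a. The set was listed by name with earlier results of these data known, so no test of the set as a whole was run. It held the alpha subunits HIF1A and EPAS1, the prolyl hydroxylases EGLN1 and EGLN3, and the hypoxia-induced genes VEGFA, BNIP3, BNIP3L, ADM, CA9 and DDIT4, which act outside glycolysis. Of these 10 genes, 9 had a probe set that the platform annotation gives to a single gene, out of 17716 genes so named. CA9, a carbonic anhydrase of the cell surface, had no probe set under that name and was not analysed here. Each of the 9 had 1 probe set, the short probes designed together against a given transcript. Those of EGLN1, EGLN3, BNIP3, BNIP3L and DDIT4 are of the s type, whose probes may match several transcripts of the same or a related gene.

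Total RNA was measured on 4 Affymetrix expression arrays. The cells of all 4, controls included, carried a knockdown of QK, whose current symbol is QKI and which encodes an RNA-binding protein of glial cells. The control group, miR-NT, received a microRNA of scrambled sequence that targets nothing by design (2 arrays), and the other group received miR-20a (2 arrays). Both were delivered by transduction. The labels do not say how QK was knocked down, whether the replicates were separate cultures, or under what oxygen the cells were grown. The p-values therefore reflect how these 4 arrays vary, a spread that may be technical, and the number of arrays limits the precision. Values are log2 expression values as deposited, judged from their range. A difference of 1 is a 2-fold difference, and values of different probe sets cannot be ranked against each other.

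Hypoxia-inducible factors are transcription factors made of an oxygen-regulated alpha subunit and the stable partner ARNT. When oxygen is available, the EGLN enzymes hydroxylate prolines of the alpha subunit, the VHL ubiquitin ligase binds it and it is degraded. When oxygen is low the subunit persists and induces genes of blood vessel growth, mitophagy, metabolism and stress, and this program is prominent in the poorly perfused parts of gliomas. Since the alpha subunits are regulated mainly as proteins, an mRNA level does not report their activity. HIF1A and VEGFA have both been described as targets of the miR-17 family, to which miR-20a belongs.

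The added microRNA is shown with its family because members with the same seed tend to share targets. In RefSeq (GRCh38.p14) 8 mature human microRNAs had the seed of miR-20a, bases 2 to 8, printed here in capitals. Mature miR-20a is encoded at chr13:91351072-91351094 on the plus strand. The sequence of the scrambled control was not used here.
hsa-miR-20a-5p: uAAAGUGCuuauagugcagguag
hsa-miR-17-5p: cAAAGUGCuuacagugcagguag
hsa-miR-20b-5p: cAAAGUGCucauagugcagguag
hsa-miR-106a-5p: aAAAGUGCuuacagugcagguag
hsa-miR-106b-5p: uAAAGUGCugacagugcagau
hsa-miR-93-5p: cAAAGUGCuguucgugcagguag
The other two, hsa-miR-519d-3p and hsa-miR-526b-3p, shared the seed and little of the remainder.

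With miR-20a, VEGFA, BNIP3 and BNIP3L measured 1.30-fold, 1.29-fold and 1.34-fold lower, and HIF1A and ADM had log2 fold changes of 0.02 and −0.02. EGLN1 measured 1.25-fold lower, and EPAS1, EGLN3 and DDIT4 had smaller or more variable differences. None of the 9 genes passed the limma test over the 12401 genes tested, where the threshold was a Benjamini-Hochberg adjusted p of 0.05 and the smallest adjusted p of the 9 was 0.143. In all, 1 gene passed downward (0.00806% of the genes tested) and 0 passed upward (0%). At an unadjusted limma p under 0.05, 4 of the 9 were lower and 0 higher, where 13.2% of all tested genes were lower and 5.82% higher. In 8 of the 9 genes the miR-20a arrays both gave lower values than either control array, as they did in 31.1% of the tested genes. The log2 fold change was below 0 in 8 of the 9, against 53.8% of the tested genes. The median log2 fold change was −0.26 over the 9 genes and −0.02 over all tested genes. After quantile normalization 7 of the 9 were below 0 and the medians were −0.17 and 0.03. The cells were measured in bulk, so fewer expressing cells and less RNA per cell cannot be told apart.

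**Figure D1:**
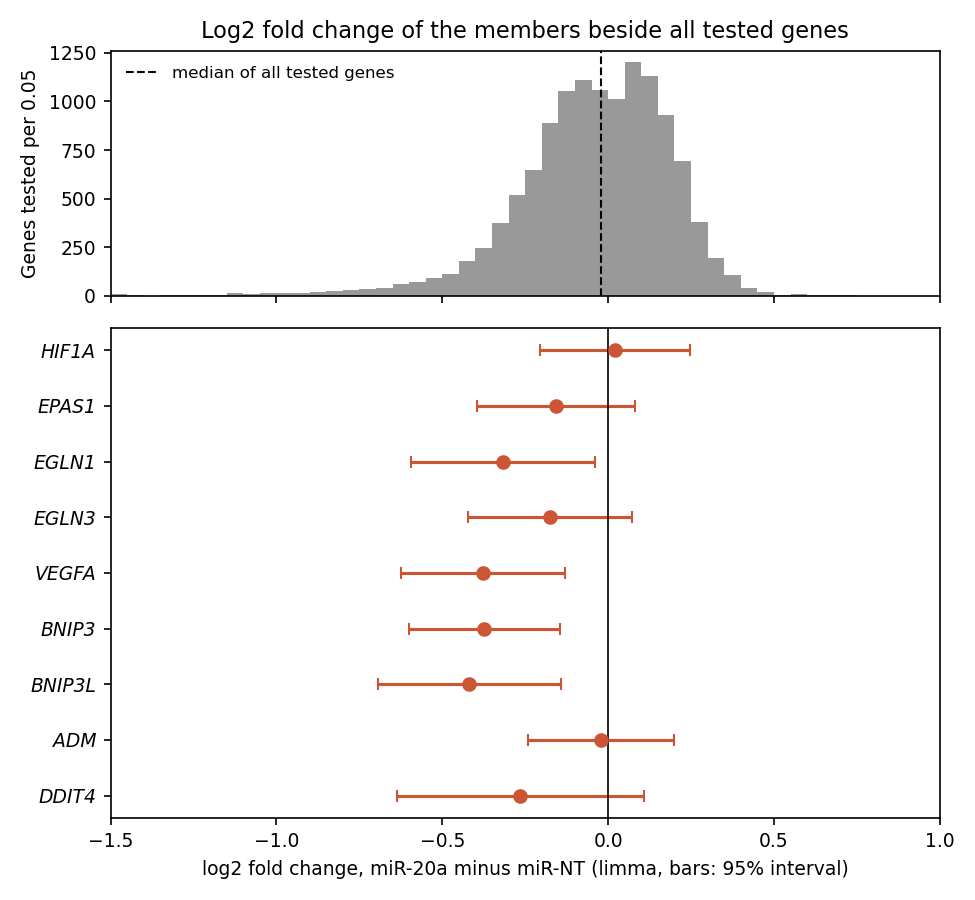
Upper panel, the number of tested genes per 0.05 of log2 fold change (miR-20a minus miR-NT), with values beyond the axis drawn in the outermost bar and the median of −0.02 dashed. Lower panel, the limma log2 fold change of the 9 genes (points) with its 95% interval (bars): the intervals of EGLN1, VEGFA, BNIP3 and BNIP3L lie below 0, and those of the other 5 genes include it.

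Control probe sets that read the 5' ends of ACTB and GAPDH were dimmer with miR-20a. Such signals can reflect RNA or labelling quality, but they were not compared with 3' control signals here. Whether the ACTB and GAPDH transcripts themselves were lower was not tested. Values of the ACTB 5' probe set were 12.78 and 12.66 on the miR-NT arrays and 11.59 and 10.43 on the miR-20a arrays. Those of the GAPDH 5' probe set were 13.89 and 13.81 on the miR-NT arrays and 13.17 and 12.30 on the miR-20a arrays. Both controls were lowest on miR-20a replicate 2. They were fitted apart from the genes, over all 20323 probe sets and without a filter on dim ones. In that fit their log2 fold changes were −1.71 (SE 0.31, limma adjusted p = 0.110) and −1.11 (SE 0.24, limma adjusted p = 0.133). Array medians over all probe sets lay between 6.43 and 6.45. The interquartile ranges were 3.14 and 3.03 on the miR-NT arrays and 3.06 and 2.92 on the miR-20a arrays. QKI itself gave 8.14 and 7.92 on the miR-NT arrays and 7.52 and 7.08 on the miR-20a arrays (log2 fold change −0.73, SE 0.16, limma adjusted p = 0.106). In a fit with the ACTB 5' signal as covariate QKI was at −0.065. That signal largely follows the group, so such a fit cannot separate the signal from miR-20a. Arrays of cells with intact QK were not analysed here.

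The glial lineage markers were in part too dim to test in these cells. GFAP, the astrocyte filament protein, gave 4.54 and 4.21 on the miR-NT arrays and 4.31 and 4.81 on the miR-20a arrays, and S100B, OLIG1, OLIG2 and NES were also below the lowest mean that was tested, 5.46. VIM, the filament protein vimentin, gave 14.32 and 14.27 on the miR-NT arrays and 14.19 and 14.02 on the miR-20a arrays. In all, 7 of 12 glial genes with a named probe set were bright enough to test: VIM, SOX2, SOX10, PDGFRA, CSPG4, the myelin protein MBP and the oligodendrocyte enzyme CNP. With miR-NT the means of the last 6 lay between 5.59 (PDGFRA) and 7.36 (CNP). PDGFRA and CSPG4, markers of oligodendrocyte precursors, had log2 fold changes of 0.37 (SE 0.09, limma adjusted p = 0.136) and 0.36 (SE 0.12, limma adjusted p = 0.193). They were named after their values were seen and were the highest of the 7. The rest of the 7 did not share a direction. VIM was at −0.19, SOX2 at −0.12 and CNP at −0.08, whereas SOX10 was at 0.12 and MBP at 0.23. Without miR-20a replicate 1, CSPG4 was at 0.41.

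Of 12 markers of immune, endothelial and epithelial cells with a named probe set, 4 were bright enough to test. The T cell gene CD3E averaged 7.37 with miR-NT and 7.65 with miR-20a (log2 fold change 0.28, SE 0.10, limma adjusted p = 0.215). AIF1 of microglia averaged 7.44 and 7.63 (0.20, SE 0.10, limma adjusted p = 0.327), and the endothelial adhesion molecule PECAM1 5.74 and 6.04 (0.30, SE 0.10, limma adjusted p = 0.202). In these 3 genes, named after their values were seen, both miR-20a arrays were above both controls, as in 25.1% of all tested genes. With the ACTB 5' signal as covariate CD3E was at 0.089, AIF1 at −0.039 and PECAM1 at 0.11. What these signals stand for in a cell line was not tested. The AIF1 probe set is of the x type, whose probes can share sequence with other transcripts. PTPRC, the general marker of blood cells, gave 4.42 and 4.18 on the miR-NT arrays and 4.14 and 3.98 on the miR-20a arrays. The endothelial cadherin CDH5 gave 4.46 and 4.49 on the miR-NT arrays and 4.18 and 4.48 on the miR-20a arrays. Both genes were too dim to test. The epithelial markers EPCAM and CDH1 were too dim to test, and the keratin KRT18 measured from 12.54 to 12.73.

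HIF1A, the alpha subunit found in nearly all cells, gave 13.22 and 13.17 on the miR-NT arrays and 13.18 and 13.25 on the miR-20a arrays. The groups overlapped, with the highest and the second lowest value both in the miR-20a group. Its difference was 0.02 on the log2 scale (SE 0.10, limma 95% interval −0.20 to 0.25, adjusted p = 0.899). In this fit a decrease of more than 0.20 thus lay outside the interval, although the test does not show that the levels were equal. The sign of HIF1A was not settled: the log2 fold change was 0.15 after quantile normalization, −0.078 in a fit that takes the ACTB 5' signal as covariate (the ACTB 5' covariate from here on), −0.004 when miR-NT replicate 2 was left out and −0.015 when miR-20a replicate 2 was.

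EPAS1 encodes HIF-2-alpha, the alpha subunit with a more restricted range of tissues and a known role in glioma stem-like cells. It gave 11.29 and 11.29 on the miR-NT arrays and 11.21 and 11.06 on the miR-20a arrays. The control arrays were nearly identical and both miR-20a arrays lay below them, replicate 1 by 0.08. EPAS1 had a log2 fold change of −0.16 (SE 0.10, interval −0.39 to 0.08, limma adjusted p = 0.403), an interval that includes 0. It was −0.01 after quantile normalization and 0.066 with the ACTB 5' covariate.

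EGLN1, or PHD2, is the main oxygen sensor that marks HIF-1-alpha for degradation. Its probe set was close to the limit of the test and gave 6.01 and 5.82 on the miR-NT arrays and 5.70 and 5.50 on the miR-20a arrays. All miR-20a values were below the control values, but the nearest arrays of the groups were 0.12 apart, less than the differences of −0.19 and −0.21 (replicate 2 minus replicate 1) within the miR-NT and the miR-20a group. The log2 fold change was −0.32 (SE 0.12, interval −0.59 to −0.04, limma adjusted p = 0.226). Without miR-20a replicate 1 it was −0.42 and passed (limma adjusted p = 0.0307), in a fit where 12.6% of all tested genes passed downward. With the ACTB 5' covariate it was 0.015.

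EGLN3, or PHD3, is a hydroxylase that HIF itself induces, so that it takes part in a feedback loop. It gave 7.07 and 7.07 on the miR-NT arrays and 6.79 and 6.99 on the miR-20a arrays. Both miR-20a values were lower, and the array with the weaker 5' controls, replicate 2, was the nearer to the controls. This amounted to a log2 fold change of −0.18 (SE 0.11, interval −0.42 to 0.07, limma adjusted p = 0.381). Leaving out any 1 array gave values from −0.27 to −0.08, and with the ACTB 5' covariate it was −0.46.

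**Figure D2:**
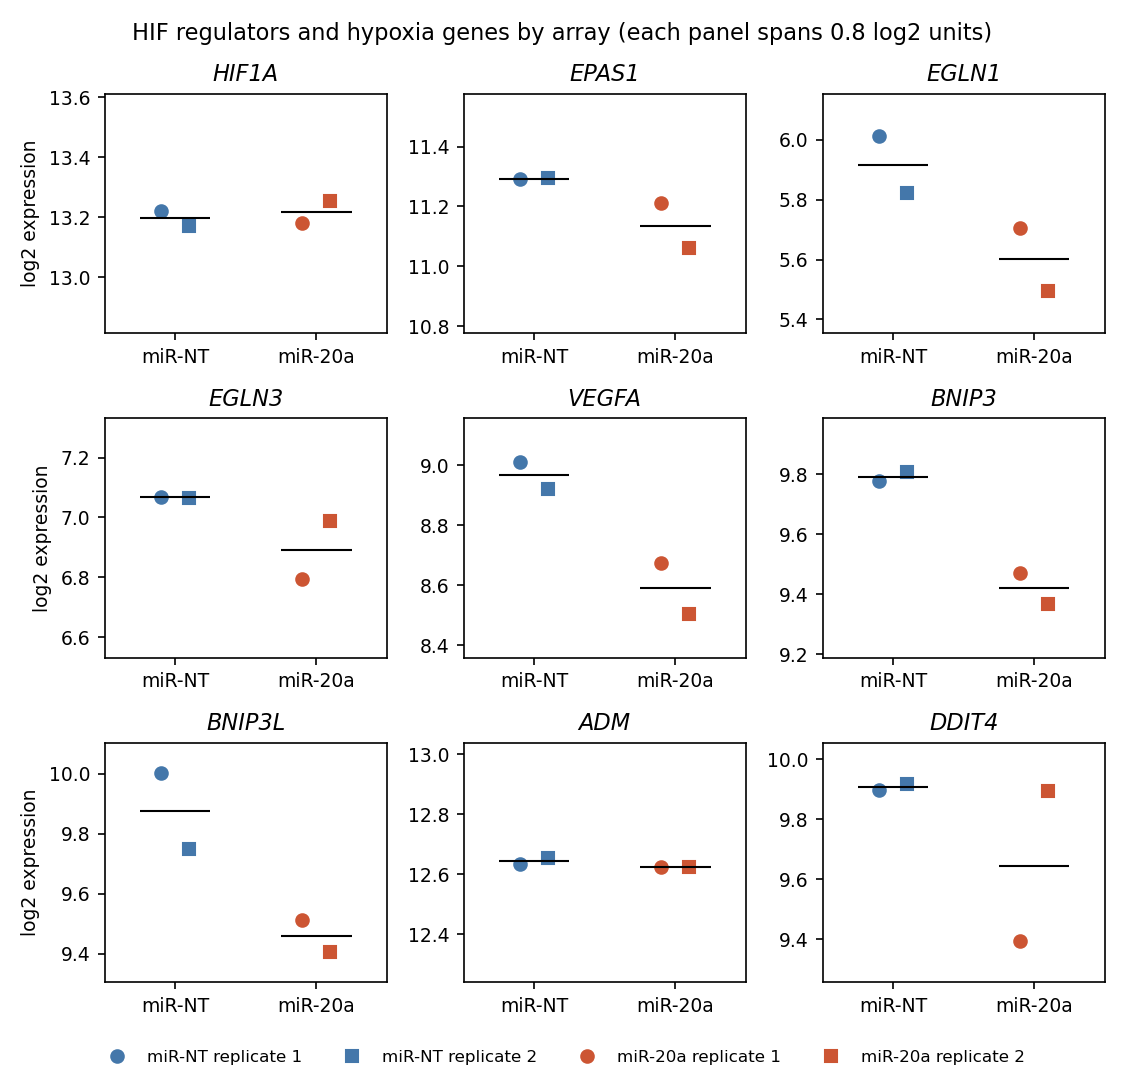
Log2 expression of the 9 genes on each of the 4 arrays, with miR-NT in blue, miR-20a in red, replicate 1 as circles, replicate 2 as squares and the group mean as a line. Each panel spans 0.8 log2 units around its own middle; the gaps between groups are widest in BNIP3 (0.31), VEGFA (0.25) and BNIP3L (0.24), HIF1A overlaps, and the miR-20a arrays of DDIT4 differ by 0.50.

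VEGFA encodes the growth factor that drives the sprouting of blood vessels and is abundant in malignant glioma. Its probe set is of the x type, whose probes can share sequence with other transcripts. It gave 9.01 and 8.92 on the miR-NT arrays and 8.68 and 8.50 on the miR-20a arrays. The groups were separated by 0.25, more than the replicates differed (replicate 2 minus replicate 1, −0.09 with miR-NT and −0.17 with miR-20a). The level was 1.30-fold lower with miR-20a (log2 fold change −0.38, SE 0.11, interval −0.63 to −0.13, limma adjusted p = 0.158), and 7.01% of all tested genes had a lower value. Without miR-20a replicate 1, which leaves the miR-20a array with the weaker 5' controls, the log2 fold change was −0.46. It was −0.11 with the ACTB 5' covariate.

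BNIP3 and BNIP3L (NIX) are related outer mitochondrial membrane proteins that recruit the autophagy machinery to mitochondria, and both are classic hypoxia-induced genes. BNIP3 gave 9.78 and 9.81 on the miR-NT arrays and 9.47 and 9.37 on the miR-20a arrays. It had the smallest p of the 9 genes and the widest gap between groups, 0.31, against differences of 0.03 and −0.10 (replicate 2 minus replicate 1) within them. The level was 1.29-fold lower (log2 fold change −0.37, SE 0.10, interval −0.60 to −0.14, limma adjusted p = 0.143). BNIP3L gave 10.003 and 9.75 on the miR-NT arrays and 9.51 and 9.40 on the miR-20a arrays. The gap between groups, 0.24, was close in size to the difference between the control arrays, −0.25. The level was 1.34-fold lower (log2 fold change −0.42, SE 0.12, interval −0.69 to −0.14, limma adjusted p = 0.158), the most negative value among the 9 genes. Without miR-20a replicate 1, BNIP3 was at −0.42 and BNIP3L at −0.47. With the ACTB 5' covariate they were at −0.23 and −0.22.

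ADM, the vasodilator peptide adrenomedullin, gave 12.64 and 12.65 on the miR-NT arrays and 12.62 and 12.62 on the miR-20a arrays. The miR-20a arrays lay below the controls by only 0.01. The log2 fold change was −0.02 (SE 0.09, interval −0.24 to 0.20, limma adjusted p = 0.893), and it turned to 0.11 after quantile normalization. VEGFA and ADM are both secreted hypoxia-induced factors that act on vessels. Their log2 fold changes were −0.38 and −0.02, and their difference was not tested.

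DDIT4 (REDD1) is a stress-induced inhibitor of mTORC1 that hypoxia, lack of energy and DNA damage switch on. It gave 9.90 and 9.92 on the miR-NT arrays and 9.39 and 9.89 on the miR-20a arrays. A single array, miR-20a replicate 1, was low, and replicate 2 was 0.003 below the nearest control. The log2 fold change was −0.26 (SE 0.16, interval −0.64 to 0.11, limma adjusted p = 0.378). Without miR-20a replicate 1 it was −0.01, and without replicate 2 it was −0.52 and passed (limma adjusted p = 0.0271), in a fit where 1.86% of all tested genes passed downward. Its SD within the miR-20a group, 0.35, was the widest among the 9 genes (n = 2), and the low array was the one with the stronger 5' controls. With the ACTB 5' covariate DDIT4 was at −1.002.

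Within the miR-20a pair, replicate 2 had the weaker 5' controls. Replicate 2 minus replicate 1 was −0.15 for EPAS1, −0.21 for EGLN1, −0.17 for VEGFA, −0.10 for BNIP3 and −0.11 for BNIP3L. It was 0.07 for HIF1A, 0.19 for EGLN3 and 0.50 for DDIT4. The array with the weaker controls was thus the lower in these 5 genes and the higher in these 3. In the fit with ACTB 5' as covariate, the median log2 fold change of the 9 genes was −0.11 and that of all tested genes 0.05. In that fit EPAS1 and EGLN1 were above 0 and the other 7 genes below it. The SE was 0.25 for every gene there, so that VEGFA (−0.11), BNIP3 (−0.23) and BNIP3L (−0.22) lay within 1 SE of 0. The covariate leaves 1 residual degree of freedom, and none of the 9 genes passed.

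**Figure D3:**
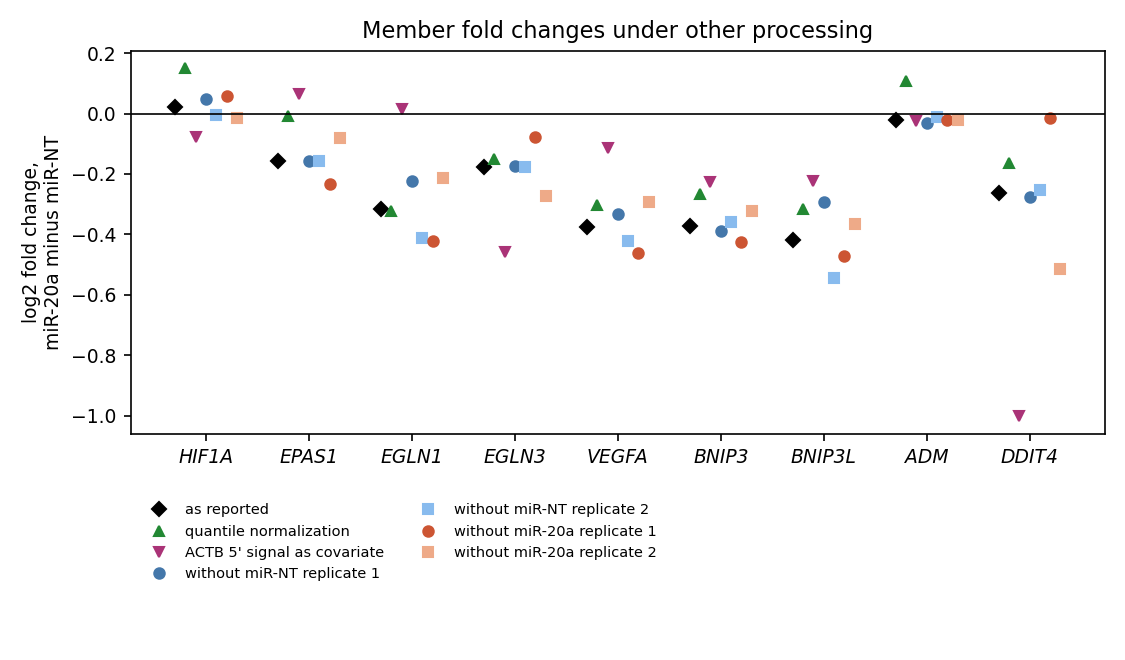
Log2 fold change (miR-20a minus miR-NT) of each gene as reported (black diamonds), after quantile normalization, with ACTB 5' as covariate, and with each array left out. VEGFA, BNIP3, BNIP3L, EGLN3 and DDIT4 stay below 0 in every setting drawn. The highest values of VEGFA, BNIP3 and BNIP3L are −0.11, −0.23 and −0.22. EGLN3 ranges from −0.46 to −0.08 and DDIT4 from −1.002 to −0.01.

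Promoter sequence is shown for 4 genes with different values, BNIP3, EGLN1, DDIT4 and ADM, because HIF binds the core ACGTG or GCGTG. The windows are the 250 bases before the RefSeq start site (GRCh38.p14), 5' to 3' on the gene's strand, with each ACGTG or GCGTG match on either strand in capitals. On the other strand these read CACGT and CACGC. BNIP3 is at chr10:131981924-131982173 (minus strand), EGLN1 at chr1:231422288-231422537 (minus), DDIT4 at chr10:72273674-72273923 (plus) and ADM at chr11:10304823-10305072 (plus).
BNIP3: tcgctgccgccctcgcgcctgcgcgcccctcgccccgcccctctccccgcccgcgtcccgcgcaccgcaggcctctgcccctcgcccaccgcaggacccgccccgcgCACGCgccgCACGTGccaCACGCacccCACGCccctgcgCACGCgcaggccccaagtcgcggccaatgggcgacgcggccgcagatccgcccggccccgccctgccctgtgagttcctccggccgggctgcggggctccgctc
EGLN1: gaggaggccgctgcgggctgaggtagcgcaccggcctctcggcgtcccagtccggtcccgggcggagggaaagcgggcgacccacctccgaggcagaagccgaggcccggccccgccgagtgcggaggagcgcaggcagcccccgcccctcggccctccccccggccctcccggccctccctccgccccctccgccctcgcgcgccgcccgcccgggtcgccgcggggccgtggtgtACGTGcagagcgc
DDIT4: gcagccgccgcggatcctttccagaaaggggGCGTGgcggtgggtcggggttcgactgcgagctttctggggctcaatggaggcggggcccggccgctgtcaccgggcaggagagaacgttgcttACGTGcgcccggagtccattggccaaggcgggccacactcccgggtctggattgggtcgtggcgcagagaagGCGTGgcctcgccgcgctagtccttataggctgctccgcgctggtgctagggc
ADM: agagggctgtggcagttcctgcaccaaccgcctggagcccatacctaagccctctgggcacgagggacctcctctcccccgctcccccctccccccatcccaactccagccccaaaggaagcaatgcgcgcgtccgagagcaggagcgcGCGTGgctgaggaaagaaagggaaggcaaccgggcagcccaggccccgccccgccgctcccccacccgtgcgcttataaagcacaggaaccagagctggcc
BNIP3 held 6 matches, of which the ACGTG and CACGT matches overlap in a CACGTG, also known as an E-box. EGLN1 held 1 ACGTG, DDIT4 held 1 ACGTG and 2 GCGTG, and ADM held 1 GCGTG. Windows of 8 of the 10 genes were searched here, and those of VEGFA and BNIP3L were not. Of these 8 genes, 4 (EGLN1, BNIP3, CA9 and DDIT4) had an ACGTG on either strand. Of 35116 promoter windows of this length, 18.5% held ACGTG, 32.2% GCGTG and 43.2% at least 1 of them. EGLN3 had neither in this window, and HIF1A and EPAS1 each had 1 GCGTG, for HIF1A in 1 of its 2 windows. A match describes letters and does not show a bound site.

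Partners and regulators of the HIF alpha subunits had values in both directions. Of 17 tested genes of this list none passed the limma test, 11 were below 0 and 6 above, with a median log2 fold change of −0.09 that was 0.01 after quantile normalization and 0.21 with the ACTB 5' covariate. At an unadjusted limma p under 0.05, 3 were lower and 2 higher, where 13.2% of all tested genes were lower and 5.82% higher. Of all tested genes 53.8% were below 0. HIF1AN, the asparagine hydroxylase FIH that blocks the activation domain of HIF, gave 8.82 and 8.70 on the miR-NT arrays and 9.15 and 9.01 on the miR-20a arrays (log2 fold change 0.32, SE 0.11, limma adjusted p = 0.196). ARNT, the shared beta subunit, gave 6.36 and 6.46 on the miR-NT arrays and 6.69 and 6.66 on the miR-20a arrays (0.27, SE 0.10, limma adjusted p = 0.220). With the ACTB 5' covariate they were at 0.55 and 0.30. In both genes the miR-20a arrays lay above the control arrays, as in 25.1% of all tested genes.

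SIAH2, a ubiquitin ligase that acts on EGLN proteins, was at −0.32 (SE 0.12, limma adjusted p = 0.220). HSP90AB1, a form of the HSP90 chaperone that stabilises HIF-1-alpha, was at −1.30 (SE 0.28, limma adjusted p = 0.111). Its miR-20a arrays measured 10.84 and 9.80 (replicate 2 minus replicate 1, −1.04), and with the ACTB 5' covariate it was at 0.22, as SIAH2 was at 0.053. VHL, the substrate receptor of the ligase that destroys HIF, measured from 3.47 to 3.79 and was too dim to test. EGLN2 had no probe set under its name.

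Of 31 further non-glycolytic hypoxia-induced genes none passed, 21 were below 0 and 10 above, and the median log2 fold change was −0.15, or −0.04 after quantile normalization. At an unadjusted limma p under 0.05, 9 were lower and 2 higher, where 13.2% of all tested genes were lower and 5.82% higher. Of all tested genes 53.8% were below 0. CA12, a carbonic anhydrase of the same membrane class as CA9, gave 8.27 and 8.10 on the miR-NT arrays and 7.68 and 7.47 on the miR-20a arrays (log2 fold change −0.61, SE 0.12, limma adjusted p = 0.0963). LOX, which cross-links collagen, was at −0.56 (SE 0.11), TFRC, the transferrin receptor, at −0.47 (SE 0.11) and WSB1, a ubiquitin ligase subunit, at −0.48 (SE 0.12), with limma adjusted p from 0.0963 to 0.138. With the ACTB 5' covariate CA12 was at −0.27, LOX at −0.28, TFRC at −0.18 and WSB1 at −0.49. The list's largest difference was upward: EGFR, the receptor of epidermal growth factor, named after its value was seen, gave 9.08 and 9.54 on the miR-NT arrays and 9.76 and 10.27 on the miR-20a arrays (log2 fold change 0.70, SE 0.20, limma adjusted p = 0.160). Without miR-20a replicate 1, which leaves the miR-20a array with the weaker 5' controls, EGFR was at 0.96. It was at −0.11 with the ACTB 5' covariate. In all, the miR-20a arrays lay entirely below the controls in 16 of the 31 genes and entirely above them in 8. Over all tested genes the shares were 31.1% and 25.1%.

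The glycolytic hypoxia-induced genes had a median of −0.07 over 21 tested genes, 16 below 0 and 5 above, and none passed. Of all tested genes 53.8% were below 0. The median was −0.04 after quantile normalization and 0.02 with the ACTB 5' covariate. Their most negative values, −2.38 for the enolase ENO1 (SE 0.46) and −0.89 for the phosphoglycerate kinase PGK1 (SE 0.16), lay far outside the range of the 9 genes (−0.42 to 0.02). For ENO1 replicate 2 minus replicate 1 was −1.72 within the miR-20a pair, and its log2 fold change was 0.16 with the ACTB 5' covariate, where PGK1 was at −0.17. GPI, the glucose phosphate isomerase, was at −0.38 (SE 0.11) and the brain aldolase ALDOC at −0.31 (SE 0.10), or −0.028 and −0.52 with that covariate. The limma adjusted p of the 4 genes ranged from 0.0949 to 0.193.

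Genes that act with or below VEGFA, ADM, BNIP3, CA9 and DDIT4 had a median of −0.01 over 18 tested genes, 9 below 0 and 9 above, which was 0.07 after quantile normalization, and none passed. At an unadjusted limma p under 0.05, 6 were lower and 0 higher, where 13.2% of all tested genes were lower and 5.82% higher. CA12 (−0.61) belongs both to this list and to the further non-glycolytic hypoxia-induced genes above, and is counted as lower in each. NRP1, the VEGF co-receptor neuropilin-1, was at −0.45 (SE 0.15, limma adjusted p = 0.201), and at 0.21 with the ACTB 5' covariate. BCL2L1, the anti-apoptotic BCL-XL to which BNIP3 can bind, was at −0.55 (SE 0.13, limma adjusted p = 0.122), and at −0.26 with that covariate. RHEB, the GTPase that activates mTORC1 and that DDIT4 restrains through the TSC complex, was at −0.57 (SE 0.15, limma adjusted p = 0.146), and at 0.12 with that covariate. Of the VEGF receptors, KDR measured from 4.51 to 4.76 and was too dim to test, and FLT1 gave 5.54 and 5.72 on the miR-NT arrays and 5.67 and 5.96 on the miR-20a arrays, with overlapping groups.

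**Figure D4:**
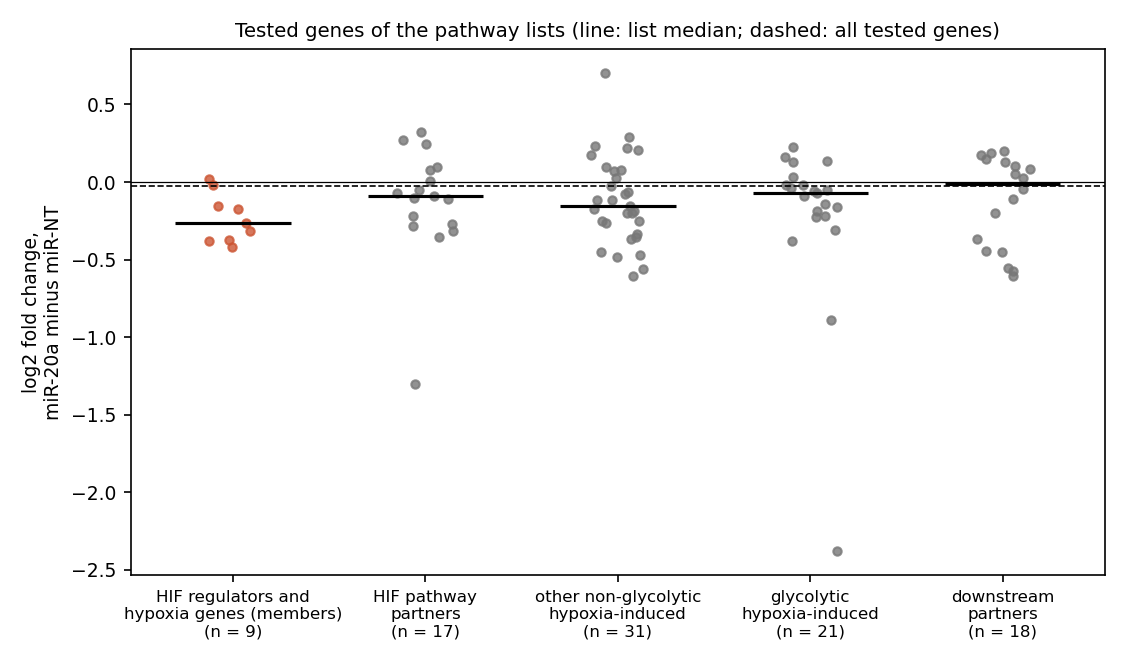
Log2 fold change (miR-20a minus miR-NT) of each tested gene (points) in the 9 HIF regulators and hypoxia genes and in the 4 pathway lists, with the list median as a line and the median of all tested genes dashed. The medians are −0.26, −0.09, −0.15, −0.07 and −0.01 from left to right, and ENO1 (−2.38) and HSP90AB1 (−1.30) are the lowest points.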

How the data were processed

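The table deposited by the authors lists 20323 probe sets on 4 arrays, with values on a log2 scale as judged from their range. Per the submitters' processing notes the package affy was used; how probes were summarised, corrected and normalized is not given in the sources used here. Samples were grouped by source name, and replicate numbers came from the titles. Probe sets were named by the platform annotation, with symbols updated through RefSeq identifiers (18034 matched): 18060 had 1 gene symbol and 886 several, which were not used. The probe set with the highest mean stood for each gene, and the dimmest 30% (5315 of 17716 genes) were left out.

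The remaining 12401 genes were fitted without a covariate by lmFit and eBayes of limma 3.58.1 (R 4.3.3), two-sided and with Benjamini-Hochberg adjustment, with 2 residual and 5.53 prior degrees of freedom. Intervals are 95% intervals of that fit. An exact permutation test was not run. In 20 simulated data sets for miR-20a minus miR-NT with 12401 genes, 18.3% of planted log2 fold changes of 0.5 were recovered, 95.0% of those of 1 and 99.9% of those of 2, and 5.21% of calls were false. The simulated errors were independent and normal, with spreads drawn from the prior of the same fit. They held no shared difference in 5' signal between the groups, so these percentages need not hold for the real arrays.

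The genes followed, the pathway lists, the alternatives and the naming rule were chosen with earlier results of these data known. The rule named all 10 genes, QKI, the 5' controls, HIF1AN, ARNT, VHL, EGLN2, FLT1, KDR and up to 4 genes with the smallest p per list. Glial, immune, endothelial and epithelial markers were described by level and, for some that were tested, by fold change. Of these, PDGFRA, CSPG4, CD3E, AIF1 and PECAM1 were named after their values were seen, as EGFR was. Alternatives were quantile normalization, median centring, other filters on dim genes, an intensity trend with a robust prior, other choices of probe set, a replicate block, the ACTB 5' covariate and each array left out.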

Additional observations from a re-analysis of the deposited data

How the results depend on the processing

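Over 116 refits of the 9 genes, 105 kept the direction and the side of the threshold, 5 passed it and 6 changed sign. The filters on dim genes, the trend with robust prior, the choices of probe set and the replicate block cannot change the log2 fold change of these genes. Median centring shifts every gene by the same amount. The 105 thus include many refits whose direction was fixed beforehand. Sign changes were HIF1A at −0.078, EPAS1 at 0.066 and EGLN1 at 0.015 with the ACTB 5' covariate, ADM at 0.11 after quantile normalization, and HIF1A, which ranged from −0.015 (miR-20a replicate 2 left out) to 0.058 (miR-20a replicate 1 left out) and was −0.0038 with miR-NT replicate 2 left out. With that covariate FLT1 (−0.26), HSP90AB1 (0.22), SIAH2 (0.053), ENO1 (0.16), RHEB (0.12), NRP1 (0.21), EGFR (−0.11) and AIF1 (−0.039) changed sign too; the cause was not tested. The median over the 9 genes was −0.17 after quantile normalization, −0.22 with the dimmest 50% left out (which removed EGLN1), −0.11 with the covariate, and from −0.27 to −0.22 with an array left out.

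Counts of genes passing limma, 0 higher and 1 lower as reported, were 2 and 45 after median centring, 0 and 6 after quantile normalization, 1 and 23 with an intensity trend and robust prior, 1 and 5 with the covariate, and 0 and 4 with the dimmest 50% left out. With an array left out they ranged from 0 to 302 higher and from 0 to 1567 lower. Such fits take the spread of the lone array's group from the other group, and EGLN1, VEGFA, BNIP3 and BNIP3L passed only without miR-20a replicate 1 and DDIT4 only without replicate 2.

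With the replicate number as a replicate block, 0 genes passed in either direction, and the smallest adjusted p among the 9 genes was 0.139. Same-numbered arrays deviated together (r = 0.267 across 12401 genes), but the labels do not say that the numbers pair the arrays.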
